A study of Mus musculus with 4 samples.

Results

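Chimeric reads of 46 genes of endoplasmic reticulum (ER) stress and mitochondrial dynamics were examined in the AGO2-CLASH libraries of mouse mesangial cells (MMC). The genes were named in a list by their function, and no measured value entered the rule, although earlier results of these data were known: 14 ER chaperones and folding enzymes, 9 genes of ER-associated degradation, 7 of the unfolded protein response, 5 of mitochondrial fission, 3 of mitochondrial fusion, 5 of mitophagy and 3 of mitochondrial biogenesis and the outer membrane. Of these 46 genes, 21 were listed with at least 1 chimeric read, among 8440 target genes listed in all, and 25 were not.

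In AGO2-CLASH, RNAs held together by AGO2 are ligated, so that a sequenced hybrid carries a miRNA segment and a segment of an mRNA. The MMC, contractile cells that support the capillaries of the glomerulus in the kidney, were primary cells isolated from C57BL/6J mice and left without treatment. There were 2 libraries from Wild type (WT) cells, A and B, and 2 from cells of miR-379 knockout (miR-379KO) mice, A and B, which carry a germline deletion in the miR-379 gene made with CRISPR-Cas9 nickase. The AGO2 antibody, the ligation and the culture were the same in both genotypes. The paper's scheme of its control and diabetic male mice names CLASH as a use of mesangial cells, without saying which mice gave these libraries. Neither the age of the mice nor the number of mice behind a library is given for these libraries. The p-values therefore measure only the spread between these libraries, which may be technical.

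Secretory and membrane proteins fold in the ER with the help of lectin and heat shock chaperones and of disulfide isomerases, and proteins that fail to fold are moved back to the cytosol and degraded. When misfolded proteins accumulate, the membrane sensors IRE1, PERK and ATF6 start the unfolded protein response, which adjusts translation and transcription of chaperones. Mitochondria divide and fuse all the time, and damaged parts are removed by mitophagy. In diabetic kidney disease miR-379 has been studied as a regulator of both processes, through Edem3, which helps to clear misfolded glycoproteins, and Fis1, an outer membrane protein of mitochondrial fission. The comparison of WT with miR-379KO MMC asks which transcripts are joined to miR-379 or change in their hybrids when it is missing.

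The WT libraries held 16324 (A) and 7192 (B) chimeric reads and the miR-379KO libraries 6326 (A) and 6476 (B), and 3 reads, taken for a single gene as the one-sided upper limit that a count of 0 allows, which is lower than the end of the 2-sided Clopper-Pearson interval, were 1.84, 4.17, 4.74 and 4.63 per 10000 in the same order. In a check of the labels, miR-379-5p was listed in 2 reads of WT A, 1 of WT B and 0 of both miR-379KO libraries, a depth at which the knockout cannot be shown from these reads alone. Of 8 mesangial marker genes, 6 had reads (650 in all, 483 of them of Fn1), at 210.0 per 10000 in WT A and 153 to 154 in the other libraries, while Itga8 and Thy1 had 0. Podocyte markers had 5 reads, and markers of endothelium, tubule and leukocytes had 0. Molecular identifiers were not used, and the intervals and floors given here therefore cover no error beyond that of counting.

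The sequences below are those the results turn on: the mature miRNAs that were read at nearly full length in a hybrid with one of the genes, and miR-379-5p. They are RefSeq sequences (GRCm38.p6), 5′ to 3′, with the seed, bases 2 to 8, in capitals. Nearly full length means a sense alignment of at least 20 nt that starts at base 1 of the read. For miR-143-3p and miR-690, which also qualified, no sequence is shown.
miR-379-5p: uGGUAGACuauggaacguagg
miR-218-5p: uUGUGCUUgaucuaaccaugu
miR-29b-1-5p: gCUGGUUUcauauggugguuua
let-7b-5p: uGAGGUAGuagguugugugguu
None of these 4 miRNAs shared its seed with another of them.

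The target sites that the deposited pairings gave for these miRNAs are shown next, as the DNA letters of the transcript, 5′ to 3′, with coordinates of GRCm38. Capitals mark the complement of bases 2 to 7 of the miRNA where the site holds it, which was the case for Fis1 and Pdia3 and not for Hsp90b1, Sel1l or the miR-690 site of Hspa5. The Fis1 site was at chr5:136966112-136966132 (plus strand, 3′-UTR), the Pdia3 site at chr2:121437737-121437760 (plus strand, 3′-UTR) and the Sel1l site at chr12:91809488-91809509 (minus strand, 3′-UTR). In Hsp90b1 the miR-218-5p site was at chr10:86694355-86694375 and the miR-143-3p site at chr10:86694099-86694121 (minus strand, both in the coding sequence). The Hspa5 site was at chr2:34774944-34774959 (plus strand), in an exon of a transcript that is annotated as non-coding.
Fis1 with miR-379-5p: ctgcacccctgtagTCTACCt
Pdia3 with miR-29b-1-5p: tacaccagagaaggcaaAACCAGa
Hsp90b1 with miR-218-5p: tcatggctgggtcaagcagaa
Hsp90b1 with miR-143-3p: gggctatgaagtcatttatctca
Sel1l with let-7b-5p: atgtgcataacttcttacctgt
Hspa5 with miR-690: tgtgtggttagcctag

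The 21 genes had 77 chimeric reads of 62 distinct sequences, with 36 and 23 reads in the WT libraries (A, B) and 9 and 9 in those of miR-379KO. No sequence was found in more than 1 library, and the largest count of a single sequence was 4. ER genes held 65 of the reads (17 of 30 genes) and mitochondrial genes 12 (4 of 16 genes). Per 10000 chimeric reads the genes together had shares of 22.1 (95% Clopper-Pearson interval 15.5 to 30.5) and 32.0 (20.3 to 47.9) in WT A and B, and of 14.2 (6.51 to 27.0) and 13.9 (6.36 to 26.4) in the miR-379KO libraries A and B. Both WT libraries were thus above both miR-379KO libraries, at 27.0 ± 7.02 against 14.1 ± 0.233 (mean ± SD, n = 2 each). The intervals of every pair of libraries overlapped, and no test was made of this sum, because the genes were chosen as a list. A miRNA segment was taken as genome-contained if it lay in the genome together with 10 nt of the read on each side (the narrower measure given further on). Without such reads, 19, 10, 7 and 7 reads were left in the same order of libraries. Reads with other longer matches to the genome were kept. The difference of the mean shares went from 13.0 to 5.01 per 10000. This difference was 23.8 with both segments in sense and 7.99 without WT B.

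**Figure D1:**
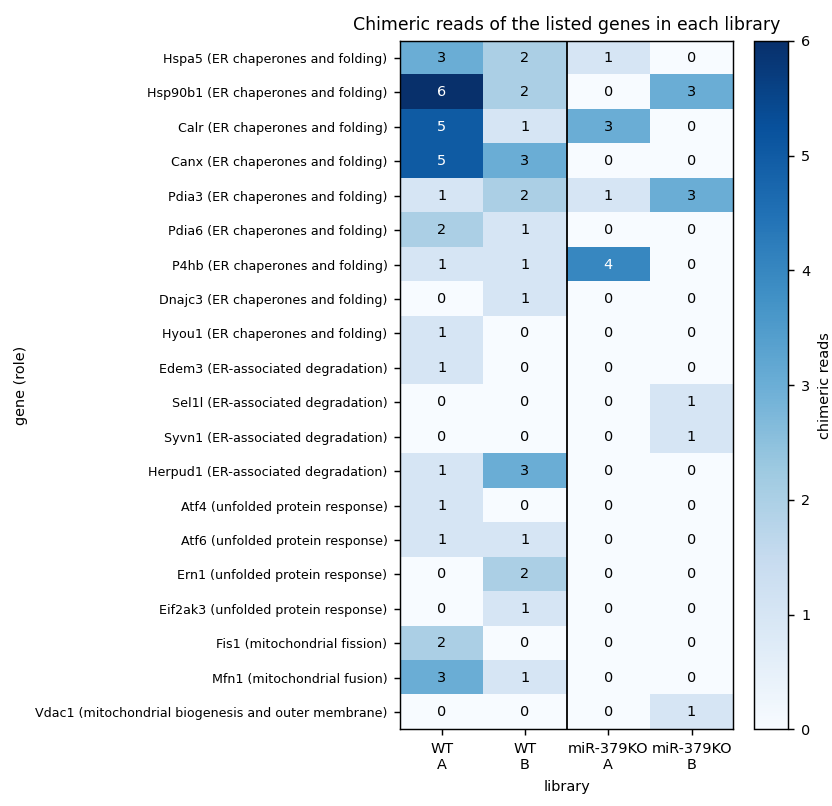
Chimeric reads (number in each cell and colour scale) of 20 of the 21 genes with reads, by gene and role (rows) and library (columns), with WT to the left of the line and miR-379KO to the right. The highest count is 6, for Hsp90b1 in WT A, and Pdia3 is the gene with reads in all 4 libraries.

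Of the 21 genes, 13 had reads in WT libraries alone, 3 in miR-379KO libraries alone (Sel1l, Syvn1 and Vdac1) and 5 in both. Over all 8440 target genes, 50.8% were listed in WT alone and 18.2% in miR-379KO alone. WT A and WT B together held 23516 chimeric reads and the miR-379KO libraries 12802. Of the 10 genes with at least 3 reads, 6 had a higher share in each WT library than in each miR-379KO library, of which 5 are described here (Canx, Herpud1, Hspa5, Mfn1 and Pdia6), and 4 had libraries that overlapped (Calr, Hsp90b1, P4hb and Pdia3). Among the 3106 target genes with at least 3 reads, 18.1% were ordered with both WT libraries above and 10.3% with both miR-379KO libraries above. The counts of these 6 genes were 3 to 8 reads, and nothing particular to them can be read from an order of 4 libraries.

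The test across all target genes called none. By edgeR's quasi-likelihood test with Benjamini-Hochberg adjustment over the 686 genes with at least 10 reads, 0 (0%) had an adjusted p-value under 0.05, the smallest was 0.203, and 25 (3.64%) had an unadjusted p-value under 0.05. DESeq2 called 0 as well, with 8 unadjusted p-values under 0.05. Hsp90b1 was the one gene of the 46 that reached 10 reads. Its log2 fold change of WT over miR-379KO was 0.34 (SE 1.35, edgeR adjusted p = 0.973), and it became -0.74 when miR-379KO A, the library without a read of it, was left out.

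The ER chaperones and folding enzymes held most of the reads, 52 from 9 of 14 genes. Hsp90b1 encodes GRP94, the HSP90 chaperone of the ER lumen. It had 6 and 2 reads in the WT libraries (A, B) and 0 and 3 in those of miR-379KO, which is 3.68, 2.78, 0 and 4.63 per 10000. The genotypes overlapped, with the highest and the lowest share both in miR-379KO.

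Of its 8 distinct sequences, 2 began with a miRNA of nearly full length. In a 95 nt sequence read 2 times in WT B, bases 1 to 21 were bases 1 to 21 of miR-218-5p and bases 23 to 95 matched the coding sequence, across an intron, from chr10:86694116-86694378. In a 68 nt sequence of miR-379KO B, bases 1 to 21 were miR-143-3p and bases 22 to 68 matched chr10:86694084-86694130. Their target segments, 1770 to 1842 and 1828 to 1874 of the 2825 nt transcript, overlapped by 15 nt although the miRNAs and genotypes differed, and a WT A segment listed with miR-6948-3p (1774 to 1848) overlapped both, by 69 and 21 nt. The pairings scored 147 and 146, with a minimum free energy (MFE) of -26.54 and -20.04 kcal/mol, and neither target segment held the complement of bases 2 to 7. All 8 target segments of Hsp90b1 lay in the coding sequence.

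Calr and Canx encode the lectin chaperones calreticulin and calnexin, which hold newly made glycoproteins. Calr had 5 and 1 reads in the WT libraries (A, B) and 3 and 0 in those of miR-379KO, and the genotypes overlapped. Canx had 5 reads in WT A, 3 in WT B (all of 1 sequence) and 0 in both miR-379KO libraries. Taken for each library by itself, the limit that a count of 0 allows was 4.74 and 4.63 per 10000 in miR-379KO, above the 3.06 and 4.17 per 10000 of Canx in WT.

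The Calr segments 1136 to 1212 and 1153 to 1212 from WT A and 1152 to 1216 from miR-379KO A lay over each other in the coding sequence by 60 to 61 nt, each with another miRNA (miR-7011-3p, miR-3089-3p and miR-1904) aligned over 12 nt. Further on, segments of miR-379KO A (1386 to 1440) and WT A (1430 to 1488) overlapped by 11 nt. In Canx, 2 WT A segments that began at base 1975 overlapped by 30 nt in the 3′-UTR. The one sense alignment of at least 16 nt here was of miR-7082-5p with Canx in WT A, over bases 6 to 21 of the miRNA with the difference A11G, counted from 1 at its 5′ end (the base of the miRNA first, that of the read last). Bases 107 to 140 of that read, which hold the miRNA segment, matched an intron of Ate1 without a mismatch.

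Hspa5 encodes BiP, the HSP70 chaperone that also keeps the stress sensors inactive. It had 3 and 2 reads in the WT libraries (A, B) and 1 and 0 in those of miR-379KO, or 1.84, 2.78, 1.58 and 0 per 10000. A 61 nt sequence read 2 times in WT A began with bases 1 to 22 of miR-690 and went on, from base 25, with 37 nt of Hspa5 at chr2:34774946-34774982 (score 140, MFE -16.20 kcal/mol). In WT B a 67 nt sequence, also read 2 times, had the target first and then bases 2 to 19 of miR-1195. Its target segment, chr2:34776794-34776825 in the 3′-UTR, was soft-masked as repeat over 100% of its length, and its bases 29 to 67, which hold the miRNA segment, occur at 35 places of the genome.

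Pdia3, Pdia6 and P4hb encode disulfide isomerases. Pdia3 was the gene found in each library, with 1 and 2 reads in WT (A, B) and 1 and 3 in miR-379KO, and the genotypes overlapped. Its reads included the one hybrid of a nearly full-length miRNA whose target segment held a seed match. In an 87 nt sequence of WT A, bases 1 to 22 were miR-29b-1-5p and bases 23 to 87 were Pdia3 at chr2:121437726-121437790, in the 3′-UTR, and the segment held the complement of bases 2 to 7 and also of bases 2 to 8 (score 146, MFE -19.28 kcal/mol). Segments from WT B and miR-379KO B overlapped it by 51 and 48 nt and were listed with other miRNAs. miR-29b-1-5p had 4 chimeric reads in the whole series, so its hybrid with Pdia3 is 1 of 4. A sequence of miR-379KO A was aligned to bases 1 to 16 of miR-466i-5p with the difference T11G and to miR-574-5p. Its bases 1 to 35, which hold the miRNA segment, matched an exon of Unc5b without a mismatch.

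Pdia6 had 2, 1, 0 and 0 reads and P4hb 1, 1, 4 and 0, in the same order, and the 4 reads of P4hb were 1 sequence with a 13 nt antisense alignment to miR-7677-3p. Hyou1, a large HSP70-related chaperone, had 1 read in WT A, and Dnajc3, an HSP40 co-chaperone, 1 in WT B.

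**Figure D2:**
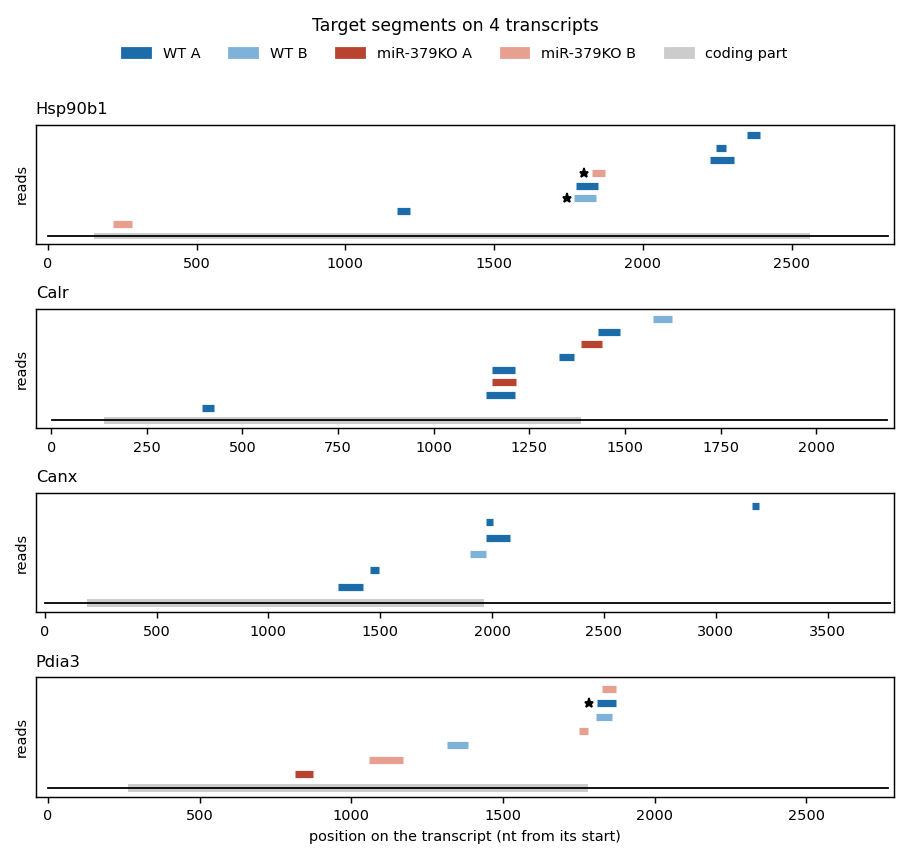
Target segments of each distinct read on the transcripts of Hsp90b1, Calr, Canx and Pdia3 (horizontal axis: nt from the transcript start), coloured by library, above the transcript line with its coding part in grey; a star marks a sense miRNA alignment of at least 20 nt. Segments from different libraries lie over each other at 1770 to 1874 of Hsp90b1, 1136 to 1216 of Calr and 1807 to 1874 of Pdia3, and by 11 nt within 1386 to 1488 of Calr.

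Overlap of target segments was as frequent in these genes as elsewhere. Of the 11 genes with 2 to 10 distinct reads, 6 (54.5%) had a pair of reads whose segments overlapped by at least 10 nt, and 4 (36.4%) had such a pair from different libraries. Among all 3619 target genes with 2 to 10 distinct reads the shares were 54.6% and 36.9%.

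The genes of ER-associated degradation had 7 reads from 4 of 9 genes. Herpud1, which sits in the ER membrane at the degradation complex, had 1 read in WT A, 3 in WT B (1 sequence) and 0 in miR-379KO. Sel1l, the partner of the ubiquitin ligase HRD1, had 1 read, in miR-379KO B. This was also a hybrid with a nearly full-length miRNA: bases 1 to 22 were let-7b-5p and bases 23 to 129 were Sel1l at chr12:91809435-91809541 in the 3′-UTR, with no complement of the seed (score 57, MFE -16.94 kcal/mol). Syvn1, which encodes HRD1 itself, had 1 read in miR-379KO B.

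Edem3 had 1 read, in WT A. Its 137 nt sequence was listed with miR-7079-3p and not with miR-379. The miRNA alignment was 12 nt, bases 10 to 21 of the miRNA at bases 2 to 13 of the read, and the target segment, bases 73 to 137, lay in the 3′-UTR at chr1:151820403-151820467. The bases 1 to 74 of the read matched 1 place of the genome without a mismatch, and the target segment did not hold the complement of bases 2 to 7 of miR-7079-3p (score 65, MFE -21.81 kcal/mol).

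The unfolded protein response had 6 reads from 4 of 7 genes, all in WT, with 2 in WT A and 4 in WT B. Atf6, the sensor that is cut to a transcription factor, had 1 in each WT library, Ern1 (IRE1) 2 in WT B, Eif2ak3 (PERK) 1 in WT B and Atf4, the transcription factor translated under stress, 1 in WT A. The 95% Clopper-Pearson intervals for 0 reads reached 5.83 per 10000 in miR-379KO A and 5.69 in B and overlapped those of both WT libraries, which began at 0.148 (A) and 1.52 (B).

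Among the mitochondrial genes, fission was represented by Fis1 alone (1 of 5 genes), with 2 reads in WT A, 1.23 per 10000, and 0 in the other 3 libraries. Both reads were 1 sequence of 112 nt and were listed with miR-379-5p, the miRNA absent from the knockout. The alignment covered 15 nt, bases 1 to 15 of the miRNA, with the difference C8T, and the target segment at bases 88 to 112 held the complement of bases 2 to 8 (score 157, MFE -21.25 kcal/mol). Bases 1 to 87 of the read, in which the 15 nt lie, matched an intron of Hnrnpf without a mismatch and ended directly before the Fis1 segment, with 0 nt between. The paper's supplement lists a Fis1 hybrid at the same read positions with a higher read count. The sequence printed there holds the whole of miR-379-5p and thus differs from the read described here.

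Mfn1, a GTPase of outer membrane fusion, had 3 reads in WT A, 1 in WT B and 0 in miR-379KO (1 of 3 fusion genes). Its 2 reads with a miRNA alignment of 18 nt (miR-7669-3p) and 20 nt (miR-706) had both the miRNA and the target in antisense, with the target segments in soft-masked repeat over 100% of their length. A further WT A read of 59 nt, listed with miR-706 and with 16 genes, matched 1 place of the genome from its first to its last base.

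Vdac1, the outer membrane channel, had 1 read, in miR-379KO B.

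**Figure D3:**
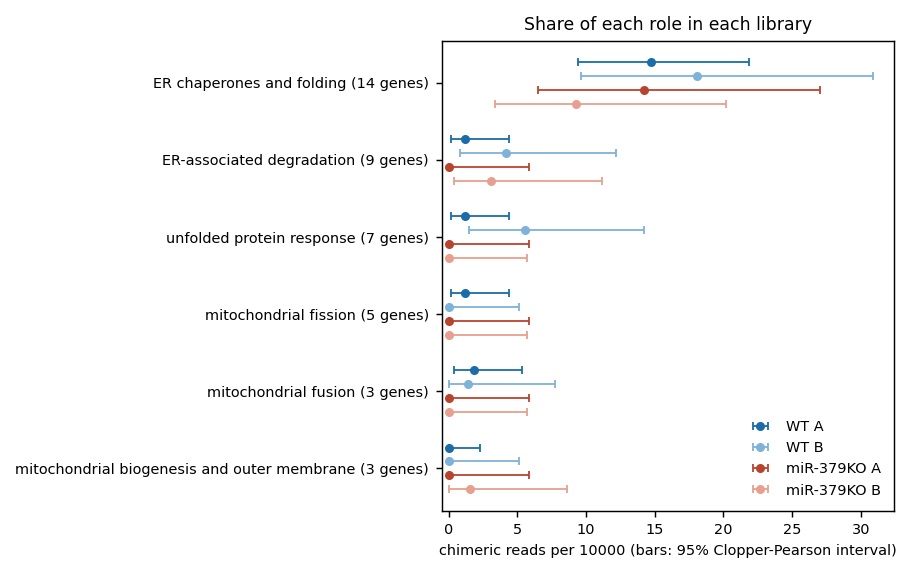
Chimeric reads per 10000 (horizontal axis) for 6 of the 7 roles, without mitophagy (vertical axis, with its number of genes) in each library; points are the shares and bars the 95% Clopper-Pearson intervals. ER chaperones and folding stand at 9.26 to 18.1 per 10000, the other plotted roles at 5.56 or less, and the intervals of the libraries overlap in each of them.

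No read was listed for the chaperones and folding factors Pdia4, Dnajb9, Sdf2l1, Creld2 and Manf, for Edem1, Edem2, Derl1, Derl2 and Vcp of ER-associated degradation, or for Xbp1, Ddit3 and Eif2s1 of the unfolded protein response. Among mitochondrial genes none was listed for Dnm1l, Mff, Mief1 and Mief2 (fission), Mfn2 and Opa1 (fusion), Pink1, Bnip3, Bnip3l and Fundc1 (4 of the 5 genes of mitophagy) and Ppargc1a and Tfam (biogenesis). By the limit of 3 reads, a gene without a read can have a share of up to 1.84 per 10000 in the deepest library, WT A, and up to 4.74 in the shallowest, that of miR-379KO A.

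The miRNA side of the hybrids was mostly short. Of the 62 distinct reads, 47 (75.8%, 95% interval 63.3 to 85.8) had a miRNA alignment under 16 nt, against 69.5% of all 29067 distinct reads, and the median was 13 nt against 14 nt. A sense alignment of at least 20 nt at the start of the read was found in 5 (8.06%, 2.67 to 17.8), against 9.37% of all reads. These 5 are the hybrids of Hsp90b1, Hspa5, Pdia3 and Sel1l described above, 7 reads in all.

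The alignment was antisense for 10 of the 62 miRNA segments (16.1%, 8.02 to 27.7) and for 4 of the target segments (6.45%, 1.79 to 15.7), against 30.5% and 29.2% over all reads. Bases 2 to 7 of the miRNA had their complement in the target segment in 20 reads (32.3%, 20.9 to 45.3), against 23.2% over all reads. Reads with an antisense or genome-contained miRNA segment are included in this count. The median MFE was -21.06 kcal/mol against -23.77 kcal/mol. These comparisons describe reads, which are not replicates, and were not tested.

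**Figure D4:**
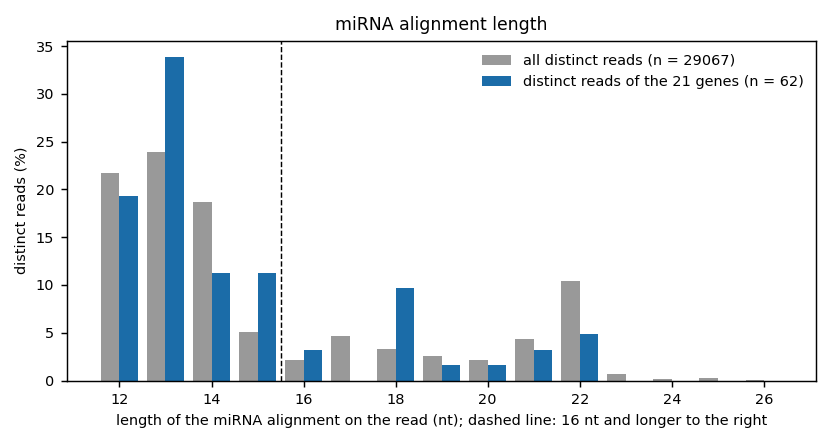
Share of distinct reads (vertical axis, percent) by the length of the miRNA alignment (horizontal axis, nt), for the 62 distinct reads of the 21 genes and for all 29067 distinct reads; the dashed line separates alignments of at least 16 nt. Both peak at 13 nt, and 75.8% of the reads of the 21 genes are left of the line against 69.5% of all.

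In most reads the miRNA segment was part of a longer match. For each read the longest stretch was found that holds the miRNA segment and occurs without a mismatch in the genome or in a spliced transcript. It exceeded the miRNA segment by over 5 nt in 52 of 62 reads and was at least 30 nt long in 38, with a median of 38.5 nt and a maximum of 126 nt (Canx with miR-6903-3p, WT A). In 41 of the 52 reads it met the target segment directly or overlapped it by up to 5 nt, and in 34 the stretch and the target segment together covered the whole read. In 10 reads the stretch came from the target gene itself (Calr, Canx, Pdia3, Pdia6, Dnajc3, Ern1, Eif2ak3, Mfn1 and Vdac1), and in 42 from another gene or from no annotated gene. In the 5 hybrids with a nearly full-length miRNA it exceeded the miRNA by 5 nt or less.

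By the narrower measure that could be applied to all reads, the miRNA segment with 10 nt of the read on each side lay in the genome outside miRNA genes in 28 of the 62 reads (45.2%, 32.5 to 58.3), against 43.0% of all distinct reads. Whether such reads arose from miRNAs was not tested.

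**Figure D5:**
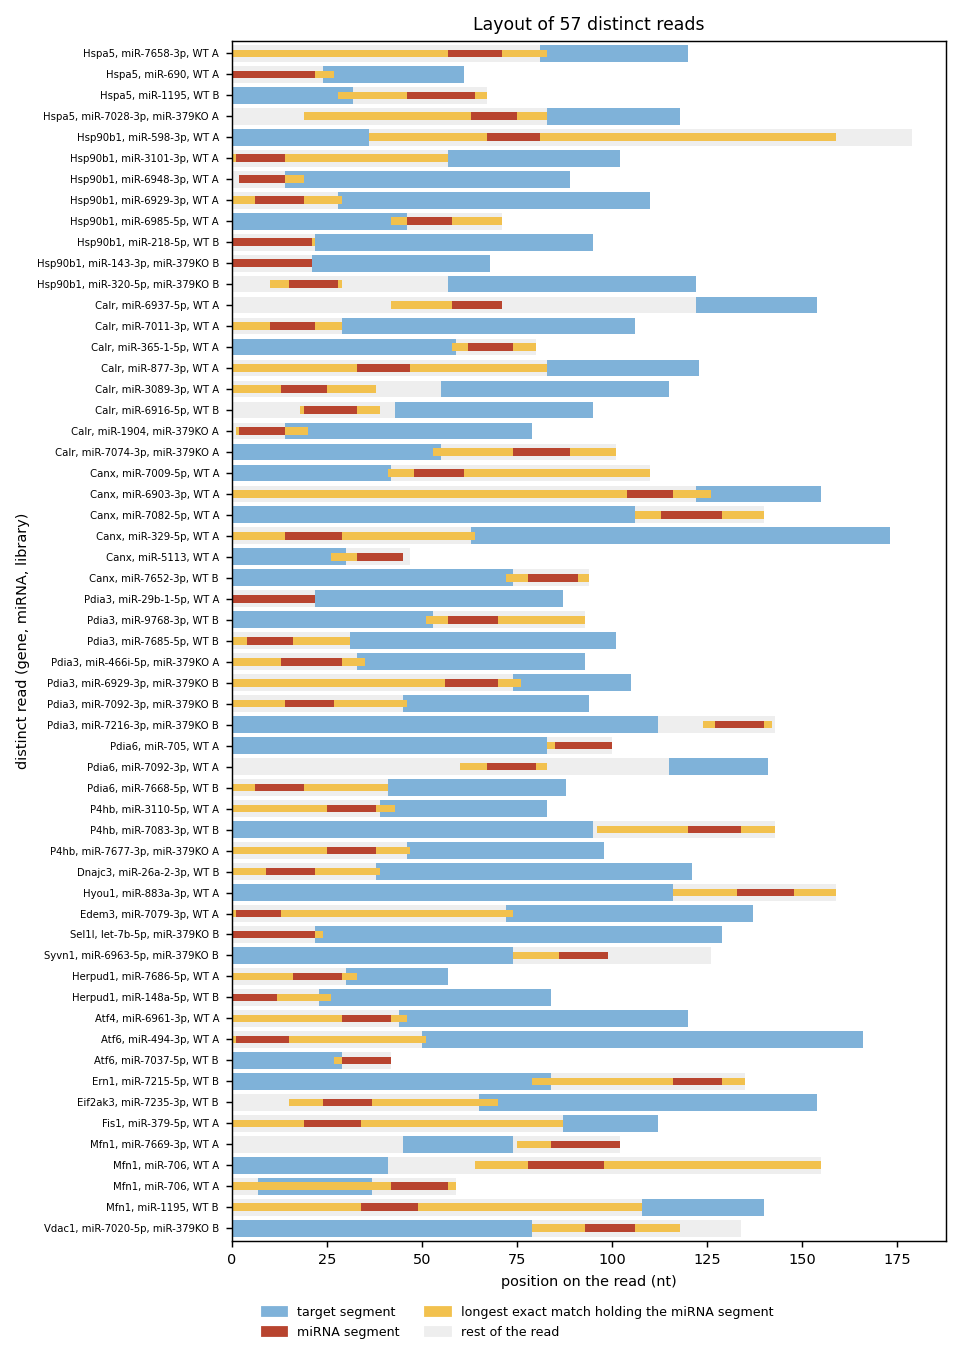
Layout of 57 of the 62 distinct reads (vertical axis: gene, miRNA and library; horizontal axis: nt from the start of the read), with the target segment in blue, the miRNA segment in red and the longest exact match that holds it in yellow. In the 5 reads with miR-218-5p, miR-143-3p, miR-29b-1-5p, miR-690 and let-7b-5p the red bar starts the read and the yellow ends within 5 nt of it, while in the Fis1 read the yellow bar spans 87 nt.

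The target segments lay in the coding sequence in 32 reads, in the 3′-UTR in 21, in the 5′-UTR in 1 and in transcripts annotated as non-coding in 8. Of the 41 reads of chaperones and folding enzymes, 27 were in the coding sequence and 12 in the 3′-UTR. The reads of the mitochondrial genes that lay in protein-coding transcripts were in UTRs. The miRNAs numbered 56, of which 4 occurred in more than 1 of the reads. The most reads were listed with miR-1195, 7 reads of 6 distinct sequences. The reads of miR-7677-3p (4), miR-148a-5p (3) and miR-7652-3p (3) were 1 sequence each, as were the 2 reads of miR-379-5p.

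Other genes of both pathways, from a list of 36 ER and 33 mitochondrial genes, had reads for 19 and 11. Of these, 4 were in the edgeR test, and 0 had an adjusted p-value under 0.05, against 0% over all genes. Uggt1, the glycoprotein folding sensor that returns proteins to Calr and Canx, had 12 reads in WT A, 3 in WT B and 0 in both miR-379KO libraries (edgeR adjusted p = 0.837). Traf2, an adaptor of IRE1 signalling, had 27, 7, 4 and 3 reads (edgeR adjusted p = 0.964). Map1lc3b, which encodes the autophagosome protein LC3B, had 14, 7, 8 and 8 reads and Bcl2l13, a mitophagy receptor, 2, 3, 0 and 5 (edgeR adjusted p = 0.964 for each). The shares of Uggt1 and Traf2 were higher in each WT library and those of Map1lc3b in each miR-379KO library, whereas those of Bcl2l13 overlapped. Among all target genes with at least 3 reads, 18.1% had both WT libraries above and 10.3% both miR-379KO libraries above.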

How the data were processed

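AGO2-CLASH libraries of primary MMC were analysed, 2 from WT and 2 from miR-379KO mice, grouped by their labels. The authors joined paired reads, discarded whatever Bowtie2 2.1.0 placed on GRCm38.p5 or its transcripts, and kept those in which blastn found separate miRNA and mRNA segments, in either orientation. The 59 nt read of Mfn1 in WT A was still listed, although it matched the genome over its whole length, and the cause was not tested. The deposited count is the raw number of joined reads sharing 1 sequence. The score, the MFE and the positions were deposited by the authors as other values, and the tool behind score and MFE is not given in the sources used here.

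Each read was counted once for each gene and library. Shares are per 10000 chimeric reads, with Clopper-Pearson intervals at 95% (scipy 1.17.1). The quasi-likelihood test of edgeR 4.0.16 (R 4.3.3) was run on genes with at least 10 reads (genotype as the only term, TMM, Benjamini-Hochberg over all genes tested, threshold 0.05). Target segments were placed on GENCODE transcripts and GRCm38, and exact matches were searched in GRCm38 on both strands. The edgeR fit and the genome search were tested on simulated data, in which the number of changed genes that edgeR called varied widely between draws, down to none, so that a lack of calls does not show a lack of change. Tables were handled with Python 3.11.15.

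The genes and the lists were chosen with earlier results of these data known. Named with values were genes with at least 3 reads, genes in the edgeR test, Fis1 and Edem3, with the others by their totals, and reads were detailed when the miRNA alignment was sense and at least 16 nt or the miRNA was miR-379, and for Edem3. As an exception to both rules, 1 gene with at least 3 reads, all in WT, and its 5 reads are in every total but are not reported here by themselves. The grouping by roles, the longest-match search, the overlap of target segments and the names taken as ribosomal RNA were chosen after the data were seen. The alternatives comprised DESeq2 1.42.0, the replicate letter as a block, no TMM, no minimum and each library left out. Reads were also restricted to distinct sequences, to miRNA alignments that were exact or reached 16 nt, to 1 miRNA and 1 gene, to sense segments or to segments not genome-contained, and shares were recomputed without ribosomal RNA reads.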

Additional observations from a re-analysis of the deposited data

How the results depend on the processing

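The count of target genes called by edgeR was 0 under 13 of 14 alternatives and 1 of 353 tested with miRNA alignments of at least 16 nt (adjusted p = 0.0476), and that gene is not one of the 46. With a library left out, 1 genotype had a single library, so the lack of calls in those fits cannot show that the result is stable. With the replicate letter as a block it was 0, with 14 unadjusted p-values under 0.05, and the Hsp90b1 log2 fold change was 0.61. The deviations of WT A and miR-379KO A from their genotype means correlated at -0.061 over the genes tested, and no source states that the letters pair libraries. The Hsp90b1 log2 fold change was -0.74 without miR-379KO A, where that genotype had a single library. It was 0.39 to 0.81 under 6 other alternatives, with no adjusted p-value under 0.05 in any of these 6. Under the remaining ones Hsp90b1 had fewer than 10 reads and could not be fitted. The difference in mean share, 13.0 per 10000, was 23.8 with both segments in sense, 5.01 without genome-contained segments and 19.0 without ribosomal RNA reads, and 7.99 to 17.9 with a library left out. Among the libraries left out, WT B gave the lowest difference. The number of genes with reads, 21, was 7 with miRNA alignments of at least 16 nt and 17 to 21 with a library left out. The share with a seed match was 22.6% for bases 2 to 8. The cause of these shifts was not tested. At this depth 20 of the 21 genes had fewer than 10 reads and were tested only in the fit without that minimum.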
